A study of Homo sapiens with 6 samples.

Results

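The insulin-like growth factor (IGF) genes were examined in A2780 cells, an established human ovarian carcinoma line. The set was made of 10 genes of 16571 gene symbols in the deposited count table: the ligand IGF2, the receptors IGF1R and IGF2R, the receptor adaptor IRS1, and the binding proteins IGFBP2, IGFBP3, IGFBP4, IGFBP5, IGFBP6 and IGFBP7. They were chosen by name, and all 10 had a row in the table.

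To compare these genes with and without depletion of the splicing factor USP39, RNA-seq libraries of 2 groups were used, with 3 libraries in each. Controls carried the vector pGIPZ-NC and the knockdown cells carried a short hairpin RNA against USP39 (shUSP39). Both were delivered by lentivirus, and the study's methods describe selection of its infected cells with puromycin and culture of A2780 in medium with fetal bovine serum. The design text calls the libraries biological triplicates, but it does not say whether they were separate infections or cultures of a single infected pool, so p-values measure the spread between these libraries only. Which of the study's hairpins was used is not given in the labels. Since the level of USP39 was not analysed here, the labels could not be checked against it.

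IGF1 and IGF2 are secreted growth factors that activate IGF1R, a receptor tyrosine kinase, which passes the signal through IRS adaptors to phosphatidylinositol 3-kinase (PI3K), AKT and mTOR and through SOS proteins to RAS. IGF2R, also known as the cation-independent mannose 6-phosphate receptor, has no kinase domain: it takes IGF2 to lysosomes for degradation and sorts lysosomal enzymes. IGF binding proteins hold the ligands outside the cell and can limit or prolong their action, IGFBP6 prefers IGF2 to IGF1, and IGFBP7 binds IGFs only weakly.

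Of the binding proteins, IGFBP6 carried nearly the whole measured level in A2780 cells, and it fell 2.77-fold in shUSP39. The levels of IGFBP2, IGFBP3 and IGFBP7 are too low if reads shared by transcripts of a gene were left out, which is not known. IGFBP4, present at a far lower level, was 4.85-fold lower in shUSP39. It had enough counts for the test only through its pGIPZ-NC libraries, and it did not pass the threshold without pGIPZ-NC replicate 2. IGF2R rose 1.15-fold and IRS1 rose 1.46-fold, while IGF1R had few counts and gave no difference past the threshold. The remaining 5 genes had too few counts for the main test.

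Libraries held 28294819 to 32939264 counts. A gene with at least 1 count was found for 12662 to 12819 symbols in the pGIPZ-NC libraries and shUSP39 replicate 1, but for 15446 in shUSP39 replicate 2 and 14890 in replicate 3. These last 2 libraries stand apart, and results were therefore also computed without them. Leaving out both keeps 1 knockdown library, shUSP39 replicate 1, against the 3 controls. The spread then comes from the controls alone and the lone library is assumed to vary like them, so these values are given as a description and not as support. The label calls A2780 a serous ovarian cancer line, yet PAX8, EPCAM, MUC1, CDH1 and MSLN had at most 10 counts in every library, and the epithelial list of 14 markers summed to 47.5 to 50.2 CPM (counts scaled to a library total of 1000000) in pGIPZ-NC and 36.6 to 43.1 in shUSP39. Most of that sum came from the keratins: KRT18 had 676 to 711 counts in controls and 932 to 1075 in shUSP39, and KRT19 had 616 to 836 counts in controls and 51 to 68 in shUSP39. MUC16, which was not tested, had 5, 1 and 1 counts in pGIPZ-NC and 6, 150 and 71 in shUSP39. Its higher counts were thus in shUSP39 replicates 2 and 3. Of the 5 epithelial markers tested, KRT8 and KRT19 fell and KRT18 and CLDN4 rose. KRT8 had enough counts for the test only through pGIPZ-NC, so its direction went with being tested. CLDN4, with 11, 35 and 2 counts in pGIPZ-NC and 37, 60 and 37 in shUSP39, had enough in libraries of both groups. Of the 6 leukocyte markers, PTPRC, CD3E and CD14 had at most 10 counts in every library, whereas CD68, which is not limited to leukocytes, had 295 to 382, and the list summed to 8.96 to 11.8 CPM in pGIPZ-NC and 11.1 to 12.2 in shUSP39. The 10 markers of fibroblasts or stroma summed to 2635 to 2751 CPM in pGIPZ-NC and 1322 to 1386 in shUSP39, mainly through the collagens COL1A2 and COL3A1, with PDGFRA and FAP at no more than 10 counts. Of the 8 stromal markers tested, 5 fell and 1 rose. Among those that fell, DCN had enough counts for the test only through pGIPZ-NC. LUM, with 176, 170 and 97 counts in pGIPZ-NC and 16, 3 and 16 in shUSP39, had enough in libraries of both groups. This sum, like KRT8 and KRT19, moved with the fall of IGFBP6 and IGFBP4, and the part of these changes in that result was not tested.

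Promoter sequences are shown for the 4 genes that passed the test, IGFBP4 among them with the limits given above. Each is the 250 bases before the RefSeq gene start in GRCh38.p14, read 5' to 3' on the gene's strand, and 8 of the 10 genes had an entry. Capitals mark 3 short motifs searched on both strands: the E-box CACGTG, which MYC and related factors bind, the GC box GGGCGG, which SP1 binds, and the TATA box TATAAA. Matches may overlap. The windows are chr12:53097417-53097666 (+) for IGFBP6, chr17:40443200-40443449 (+) for IGFBP4, chr6:159968832-159969081 (+) for IGF2R and chr2:226799821-226800070 (-) for IRS1.
IGFBP6: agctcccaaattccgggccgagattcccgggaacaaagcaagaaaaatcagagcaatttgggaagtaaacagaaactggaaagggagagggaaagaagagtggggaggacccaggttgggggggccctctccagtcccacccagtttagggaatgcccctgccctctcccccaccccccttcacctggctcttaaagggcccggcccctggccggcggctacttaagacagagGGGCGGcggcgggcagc
IGFBP4: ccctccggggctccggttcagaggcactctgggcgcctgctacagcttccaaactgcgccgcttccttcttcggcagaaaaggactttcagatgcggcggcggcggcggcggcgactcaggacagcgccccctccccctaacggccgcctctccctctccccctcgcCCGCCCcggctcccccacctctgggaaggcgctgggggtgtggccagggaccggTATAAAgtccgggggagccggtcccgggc
IGF2R: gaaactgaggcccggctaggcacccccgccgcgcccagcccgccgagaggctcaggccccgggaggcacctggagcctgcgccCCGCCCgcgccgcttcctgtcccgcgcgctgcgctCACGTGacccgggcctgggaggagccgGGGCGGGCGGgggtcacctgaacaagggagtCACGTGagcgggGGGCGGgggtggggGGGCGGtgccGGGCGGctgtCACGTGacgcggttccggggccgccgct
IRS1: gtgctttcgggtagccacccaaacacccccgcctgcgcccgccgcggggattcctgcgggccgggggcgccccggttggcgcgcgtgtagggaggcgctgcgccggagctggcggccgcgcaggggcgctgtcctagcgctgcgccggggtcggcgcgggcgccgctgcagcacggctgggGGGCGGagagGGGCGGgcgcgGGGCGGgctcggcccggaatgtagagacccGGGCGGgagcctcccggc

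IGF2R had 3 E-boxes, whose first letters lie at -132, -74 and -28 from the start, and 6 GC boxes. IRS1 had 4 GC boxes and no E-box. IGFBP6 had 1 GC box at -17, and IGFBP4 had 1 GC box at -83 and 1 TATA box at -29. Over all 27305 promoters of the same length, 6.49% held an E-box, 42.3% a GC box and 11.1% a TATA box, and 0.0879% held at least 3 E-boxes and 7.82% at least 4 GC boxes. G and C made up 79.2% of the IGF2R window and 80.8% of that of IRS1, 71.6% of that of IGFBP4 and 61.2% of that of IGFBP6, against a median of 58% over all promoters. A match describes letters in the window and says nothing of binding in these cells.

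Across all genes, edgeR's quasi-likelihood test was fitted to 10695 symbols that passed the filter on low counts, and p-values were adjusted over all of them (Benjamini-Hochberg). A gene was called when its adjusted p was under 0.05 and its change over 2-fold. By this rule 6.81% of the genes tested were called, 4.53% higher and 2.28% lower in shUSP39. With no fold limit, 33.6% passed the adjusted p, 16.1% higher and 17.5% lower. The 3 libraries of one group lay wholly above or below those of the other in 44.5% of the genes tested, with shUSP39 above in 24.1% and below in 20.3%. Of the 10 IGF genes, 5 were tested: IGFBP4 and IGFBP6 were called lower, IGF2R and IRS1 passed the adjusted p as higher without reaching 2-fold, and IGF1R did not pass. IGFBP4 passed the filter through its pGIPZ-NC counts alone, so it had to be lower in shUSP39 to be tested as it was, and the shares above are no yardstick for it. The median log2 fold change over all genes tested was 0.01.

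**Figure D1:**
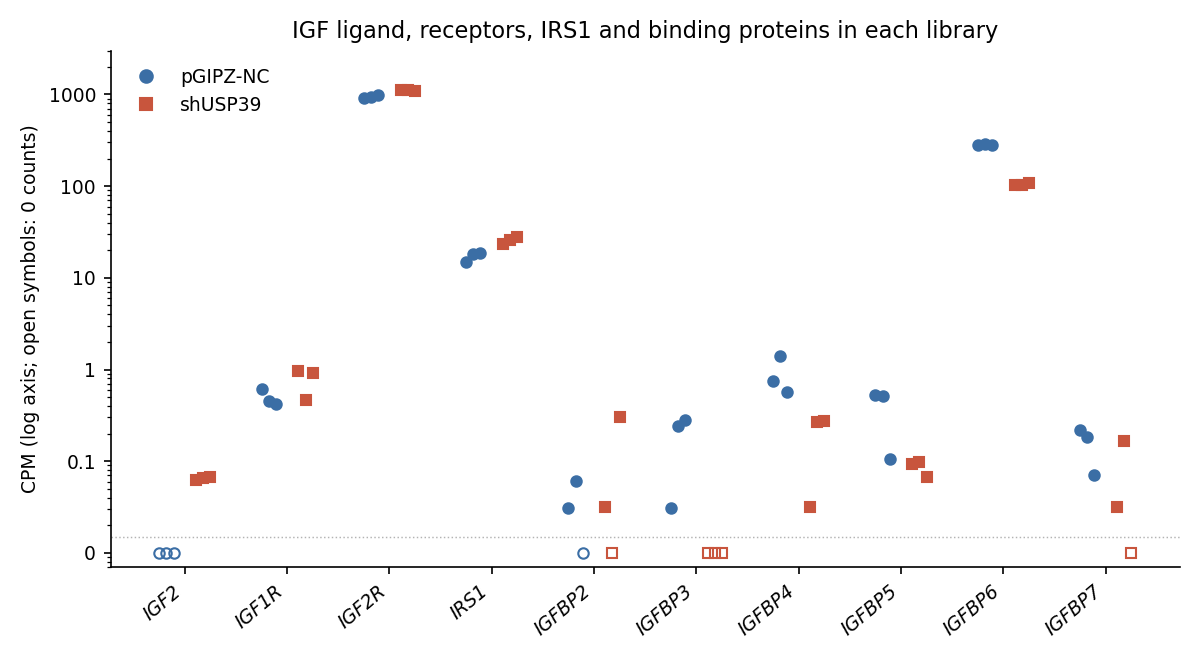
CPM (log axis) of the 10 IGF genes in each of the 6 libraries, with circles for pGIPZ-NC, squares for shUSP39 and open symbols at the foot for 0 counts. IGFBP6 lies at 279 to 289 CPM in pGIPZ-NC and at 102 to 107 in shUSP39, and apart from IGF2R, IRS1 and IGFBP6 the genes reach at most 1.40 CPM.

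The ligand was close to absent from these counts. IGF2, on chromosome 11 (2150342 to 2179621, minus strand, GRCh37 as for all gene positions here), had 0 counts in all 3 controls and 2 counts in each of the shUSP39 libraries. Both groups were at or under the floor of 3 counts per library, so no fold is given. Exons of IGF2 overlap those of the readthrough gene INS-IGF2 on the same strand and of IGF2-AS on the opposite strand, and the sources used here do not say whether counting used strand. IGF1, the other ligand, had 0 counts in 5 libraries and 1 count in shUSP39 replicate 3.

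The receptors differed widely in level. IGF2R, which spans 49 exons on chromosome 6 (160390114 to 160534539, plus strand), had 904, 949 and 995 CPM in pGIPZ-NC replicates 1, 2 and 3 and 1130, 1119 and 1094 CPM in shUSP39 replicates 1, 2 and 3. Every shUSP39 library lay above every pGIPZ-NC library, and the mean rose from 950 ± 45.2 to 1115 ± 18.6 CPM (SD, n = 3). The log2 fold change was 0.21 (SE 0.03, edgeR adjusted p = 1.37e-05). Its mean CPM was higher than that of 98.8% of the genes tested. From shUSP39 replicate 1 alone, the log2 difference from the controls was 0.23.

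IGF1R, on chromosome 15 (99191768 to 99507759, plus strand), had 20, 15 and 12 counts in pGIPZ-NC and 31, 14 and 27 in shUSP39. Replicates 1 and 3 of shUSP39 were above all controls and replicate 2 was among them. Controls averaged 0.50 ± 0.106 CPM and the knockdown libraries 0.785 ± 0.281 CPM (SD, n = 3). The log2 difference of 0.62 had a 95% interval from -0.36 to 1.60 and an edgeR adjusted p of 0.377, so the depth leaves both a lower and a higher level within the interval.

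How reads shared by several transcripts of a gene were counted is not given in the sources used here. The annotation lists 2 RefSeq messenger RNAs for IGF1R, 5 for IGF2, 4 for IGFBP2, 2 for IGFBP3 and 2 for IGFBP7, but 1 each for IGF2R, IGFBP4, IGFBP5, IGFBP6 and IRS1. Over all genes, the median level per kilobase of transcript was 1.03 CPM for the 6539 genes with 1 such RNA and 0.429 CPM for the 9077 genes with 2 or more. If shared reads were left out, the levels of IGF1R, IGF2, IGFBP2, IGFBP3 and IGFBP7 are too low, and the part of this in their low counts was not tested.

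IRS1, the adaptor that couples IGF1R and the insulin receptor to PI3K, lies on chromosome 2 (227596028 to 227664536, minus strand). It had 14.8, 18.3 and 18.7 CPM in pGIPZ-NC and 23.1, 26.0 and 27.7 CPM in shUSP39. The groups did not overlap, and the mean went from 17.3 ± 2.12 to 25.6 ± 2.33 CPM (SD, n = 3). IRS1 thus rose 1.46-fold, with a log2 fold change of 0.54 (SE 0.10, edgeR adjusted p = 0.000121). From shUSP39 replicate 1 alone, the log2 difference from the controls was 0.40.

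Among the binding proteins, IGFBP6 had by far the most counts. The gene has 4 exons on chromosome 12 (53491220 to 53496129, plus strand). It had 9084, 9515 and 7898 counts in pGIPZ-NC and 3252, 3102 and 3158 in shUSP39, or 282, 289 and 279 CPM against 102, 103 and 107 CPM. No library of either group came near the other group. IGFBP6 fell from 283 ± 5.03 to 104 ± 2.85 CPM (SD, n = 3), a 2.77-fold decrease (log2 fold change -1.47, SE 0.04, edgeR adjusted p = 8.41e-20). Only 184 of the 10695 genes tested had a lower log2 fold change, and its mean CPM was above that of 88.4% of them. From shUSP39 replicate 1 alone, the log2 difference was -1.49.

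IGFBP4, a binding protein that the protease PAPPA cuts to release IGF, has 4 exons on chromosome 17 (38599702 to 38613977, plus strand). Its counts were 24, 46 and 16 in pGIPZ-NC and 1, 8 and 8 in shUSP39. All 3 shUSP39 libraries lay below the lowest control, at 0.0315, 0.265 and 0.272 CPM against 0.745, 1.40 and 0.566. The log2 fold change was -2.28 (SE 0.64, edgeR adjusted p = 0.00649). Without pGIPZ-NC replicate 2, the library with the most IGFBP4 counts, it was -1.81 and was no longer called (adjusted p = 0.110), so the call rests on that library. From shUSP39 replicate 1 alone it was -4.70, a value that rests on 1 knockdown count.

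**Figure D2:**
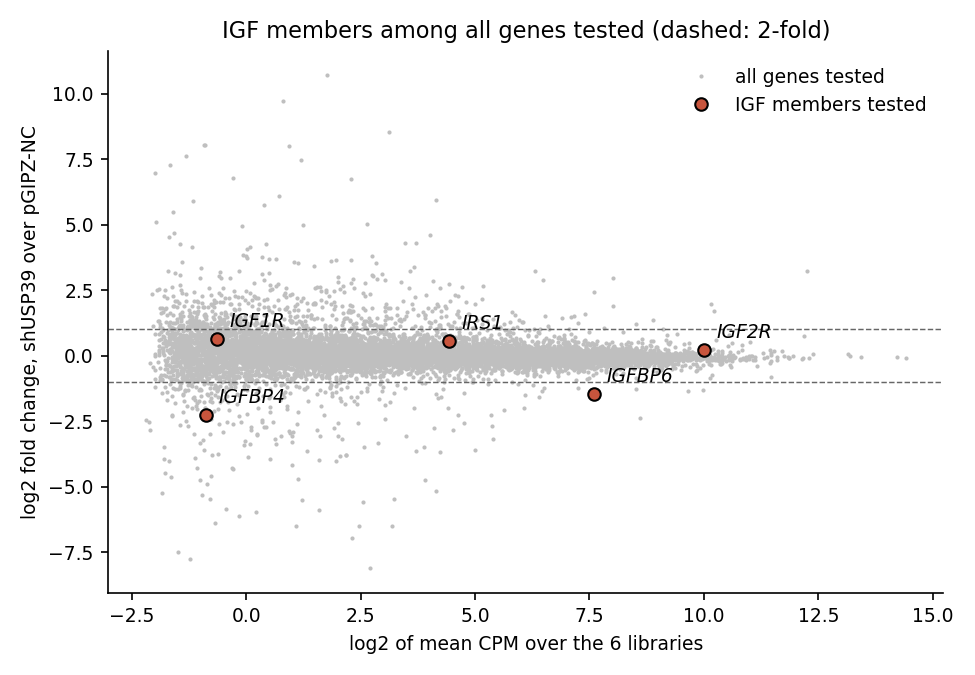
Log2 fold change of shUSP39 over pGIPZ-NC against the log2 of the mean CPM over the 6 libraries, for the 10695 genes tested (grey) and the 5 IGF genes among them (red), with dashed lines at 2-fold. IGFBP6 lies at -1.47 among well-counted genes and IGFBP4 at -2.28 among genes with few counts, while IGF2R and IRS1 stay within 2-fold.

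The other binding proteins did not pass the filter on low counts. IGFBP5, an extracellular matrix-binding member on chromosome 2 (217536828 to 217560272, minus strand), had 17, 17 and 3 counts in pGIPZ-NC and 3, 3 and 2 in shUSP39. Its CPM did not overlap between groups, but pGIPZ-NC replicate 3, at 0.106, was close to the highest shUSP39 library, at 0.0992. From 37 and 8 summed counts the ratio was 4.52-fold lower in shUSP39, with a 95% counting interval of 2.07 to 11.3. Such intervals cover counting error only, not the spread between libraries. Without the filter its log2 fold change was -2.12 (edgeR adjusted p = 0.140). It passed the filter when pGIPZ-NC replicate 3, the low control, or any shUSP39 library was left out. Each time it passed through its pGIPZ-NC counts alone, so it had to be lower in shUSP39 to be tested. It was called without that control (-2.56, adjusted p = 0.0350), where 2 controls of 17 counts remain, and was not called without shUSP39 replicate 1, 2 or 3 (adjusted p = 0.0934, 0.108 and 0.151). Exons of the antisense RNA DIRC3-AS1 overlap it on the opposite strand.

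IGFBP3, the main carrier of IGFs in blood, lies on chromosome 7 (45951844 to 45961473, minus strand). It had 1, 8 and 8 counts in pGIPZ-NC and 0 in every shUSP39 library. With every shUSP39 library set at the floor of 3 counts, the control mean was 1.88-fold higher. This value leaves out the error of the controls, and pGIPZ-NC replicate 1 was itself under the floor. The fit without a filter called it (edgeR adjusted p = 0.0429), on 17 counts in all, and its fitted fold depends on the prior count. With 0 counts, a library allows up to 3 counts of its total.

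IGFBP7, on chromosome 4 (57896939 to 57976551, minus strand), had 7, 6 and 2 counts in pGIPZ-NC and 1, 5 and 0 in shUSP39, and the groups overlapped. Replicate 2, one of the libraries with more genes detected, held 5 of its 6 shUSP39 counts, and the overlap came from that library alone. The ratio of controls over shUSP39 was 2.45, with a 95% counting interval of 0.897 to 7.69 that includes equality. Its exons overlap POLR2B on the opposite strand, a gene with a row of its own. IGFBP2, on chromosome 2 (217497551 to 217529159, plus strand), had 1, 2 and 0 counts in pGIPZ-NC and 1, 0 and 9 in shUSP39. Of its 10 shUSP39 counts, 9 came from replicate 3, one of the libraries with more genes detected. The ratio of 3.41 over controls had a 95% counting interval of 0.877 to 19.3.

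To compare levels between genes, CPM was divided by the length of the longest coding transcript in kilobases. IGFBP6 led in both groups, with 241 ± 4.27 CPM per kilobase in controls against 88.4 ± 2.42 after knockdown (SD, n = 3). IGF2R came next, with 66.7 ± 3.18 and 78.3 ± 1.31 CPM per kilobase. IRS1 followed with 1.77 ± 0.217 and 2.62 ± 0.239, and IGFBP4 with 0.409 ± 0.198 and 0.0859 ± 0.0620 CPM per kilobase. In pGIPZ-NC the libraries of these 4 genes did not overlap with those of the next gene in the order. In shUSP39 this held down to IRS1, and the levels of IGFBP4, IGFBP2, IGF1R and IGFBP7 overlapped. This order takes the counts as given, so the limit on shared reads holds for IGF1R, IGF2, IGFBP2, IGFBP3 and IGFBP7 here too.

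The gap between the leading binding protein and IGF2R narrowed in every shUSP39 library. The ratio of IGF2R to IGFBP6, per kilobase, was 0.265, 0.272 and 0.295 in pGIPZ-NC and 0.914, 0.903 and 0.843 in shUSP39. Of the summed level of the 6 binding proteins per kilobase, IGFBP6 made up 99.6% to 99.8% in pGIPZ-NC and 99.6% to 99.9% in shUSP39. The sum itself was 240.0, 246 and 238 CPM per kilobase in pGIPZ-NC and 87.0, 87.4 and 91.6 in shUSP39. With a share this close to the whole, the sum follows IGFBP6 and the share could hardly move. If shared reads were left out, IGFBP2, IGFBP3 and IGFBP7 are too low and the share of IGFBP6 is too high, which was not tested. With the length of all annotated exons in place of the longest transcript, IGFBP6 had 210 and 77.3 CPM per kilobase and IGF2R had 42.0 and 49.3, in pGIPZ-NC and shUSP39, and the order of the first 4 genes was as before.

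**Figure D3:**
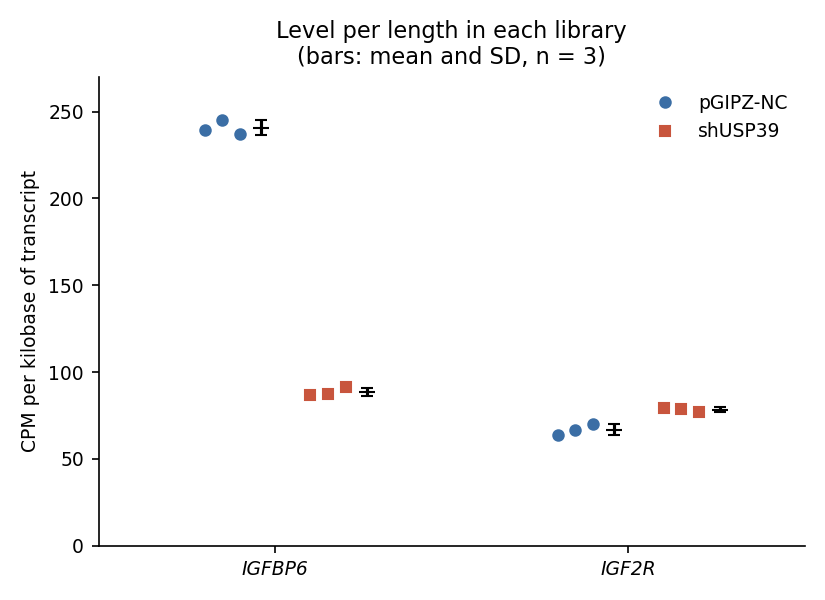
Level in CPM per kilobase of transcript of IGFBP6 and IGF2R in each library (circles pGIPZ-NC, squares shUSP39), with the mean and SD of 3 libraries beside them. IGFBP6 drops from 241 to 88.4 CPM per kilobase on average, close to the 78.3 of IGF2R in shUSP39.

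Next, the genes that surround these members in the pathway were counted from 6 lists of 62 genes. Of these, 41 were tested, 12 had a row but too few counts for the test, and 9 were not analysed here. In shUSP39, 8 passed the adjusted p as higher and 8 as lower, against 16.1% and 17.5% of all genes tested. IRS2, PIK3CD and STC2 were called, all higher, where 4.53% of all genes tested were called higher. IRS2 passed the filter on low counts through its shUSP39 counts alone, so that share is no yardstick for it. The median log2 fold change over the 41 genes was 0.12, beside 0.01 over all genes tested. With shUSP39 replicate 1 as the only knockdown library, 12 rather than 16 passed the adjusted p, with the spread taken from the controls.

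Of 7 other ligands, receptors and carriers, 1 was tested. INSR, the insulin receptor, had 29, 4 and 12 counts in pGIPZ-NC and 31, 28 and 24 in shUSP39, and did not pass (log2 fold change 0.88, edgeR adjusted p = 0.232). IGFBP1 had 0 counts in 5 libraries and 2 counts in shUSP39 replicate 1. IGFALS, which forms a complex with IGFBP3 or IGFBP5 and an IGF in blood, had 0 to 8 counts per library.

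Of the 11 other adaptors, 8 were tested, 2 rose and 1 fell, with a median log2 fold change of 0.19. IRS2, which acts beside IRS1, had 9, 1 and 3 counts in pGIPZ-NC and 32, 42 and 35 in shUSP39. It rose 8.24-fold from a low level (log2 fold change 3.04, SE 0.60, edgeR adjusted p = 0.000234), and with no filter the log2 fold change was also 3.04 (adjusted p = 8.23e-06). Controls 2 and 3 were at or under 3 counts, and the size of the rise depended on the control left out: it was 4.07 without pGIPZ-NC replicate 1 and 2.56 without replicate 2. With at least 10 counts required in every library, IRS2 was not tested. Per library, its CPM did not overlap between groups, at a mean of 0.139 ± 0.128 and 1.20 ± 0.191 (SD, n = 3). SH2B2, an adaptor of the insulin receptor, rose slightly (0.20, adjusted p = 0.0365), and passed the adjusted p in 10 of 16 alternatives. SOS1, which links receptors to RAS, fell slightly (-0.17, adjusted p = 0.00304), and did not pass with shUSP39 replicate 1 as the only knockdown library (adjusted p = 0.182). IRS4, named after its values were seen, had 0 counts in every control and 7, 9 and 4 in shUSP39. With every control set at the floor of 3 counts, its shUSP39 mean was 2.25-fold higher, a value that leaves out the error of the shUSP39 counts.

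Of the 15 genes of the PI3K-AKT branch, 12 were tested, 2 rose and 1 fell, with a median log2 fold change of -0.01. PIK3CD, the delta catalytic subunit of PI3K, had 1235, 1310 and 1048 counts in pGIPZ-NC and 2913, 2858 and 2872 in shUSP39. Every shUSP39 library lay far above every control. PIK3CD rose 2.42-fold (log2 fold change 1.28, SE 0.06, edgeR adjusted p = 3.45e-15). PIK3R1, a regulatory subunit, rose from 5.72 ± 1.15 to 10.3 ± 2.04 CPM (SD, n = 3), by 0.82 log2 units (SE 0.17, adjusted p = 0.000329). INPPL1, an inositol phosphatase that counters PI3K, fell (-0.19, adjusted p = 0.000160). AKT1 and AKT2 had log2 differences of 0.01 and -0.03 and did not pass (adjusted p = 0.966 and 0.942), and PIK3CA, a further catalytic subunit, did not pass either (0.15, adjusted p = 0.0861).

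Of the 13 mTORC1 and FOXO genes, 11 were tested, 2 rose and 3 fell, with a median log2 fold change of 0.11. FOXO1, a transcription factor that AKT keeps out of the nucleus, fell from 32.6 ± 1.12 to 17.8 ± 0.588 CPM (SD, n = 3; log2 fold change -0.90, SE 0.08, edgeR adjusted p = 2.80e-09). MTOR, the kinase of the complex, fell from 347 ± 5.90 to 264 ± 6.76 CPM (-0.42, SE 0.04, adjusted p = 5.89e-10). GSK3A, a kinase that AKT inhibits, fell (-0.16, adjusted p = 0.000834). EIF4EBP1, a translation repressor that mTORC1 phosphorylates, rose (0.17, adjusted p = 0.00245). Each of these 4 changes was smaller than 2-fold.

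Of the 13 proteases of binding proteins and their inhibitors, 7 were tested, 2 rose and 2 fell, with a median log2 fold change of 0.20. STC2, a secreted inhibitor of PAPPA, had 2153, 1979 and 1778 counts in pGIPZ-NC and 5598, 5322 and 5149 in shUSP39. The groups lay far apart, and STC2 rose 2.73-fold, from 63.2 ± 3.37 to 176 ± 0.570 CPM (SD, n = 3; log2 fold change 1.45, SE 0.05, edgeR adjusted p = 3.90e-18). PAPPA itself had 9 to 28 counts per library and did not pass (0.49, adjusted p = 0.524). HTRA1, a secreted serine protease that cuts IGFBP5, fell from 26.0 ± 3.07 to 14.4 ± 0.492 CPM (-0.88, SE 0.10, adjusted p = 8.28e-08). CTSD, a lysosomal protease that IGF2R helps to sort, rose from 726 ± 14.1 to 915 ± 16.4 CPM (0.31, SE 0.03, adjusted p = 1.21e-08). ADAM17, a membrane protease, fell slightly (-0.15, adjusted p = 0.0255), and passed the adjusted p in 10 of 16 alternatives.

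Of the 3 IGF2 mRNA-binding proteins, which bind IGF2 and other messenger RNAs, 2 were tested. IGF2BP3 fell from 194 ± 4.09 to 146 ± 9.48 CPM (SD, n = 3; log2 fold change -0.43, SE 0.05, edgeR adjusted p = 3.57e-08), and IGF2BP1 did not pass (-0.06, adjusted p = 0.506).

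**Figure D4:**
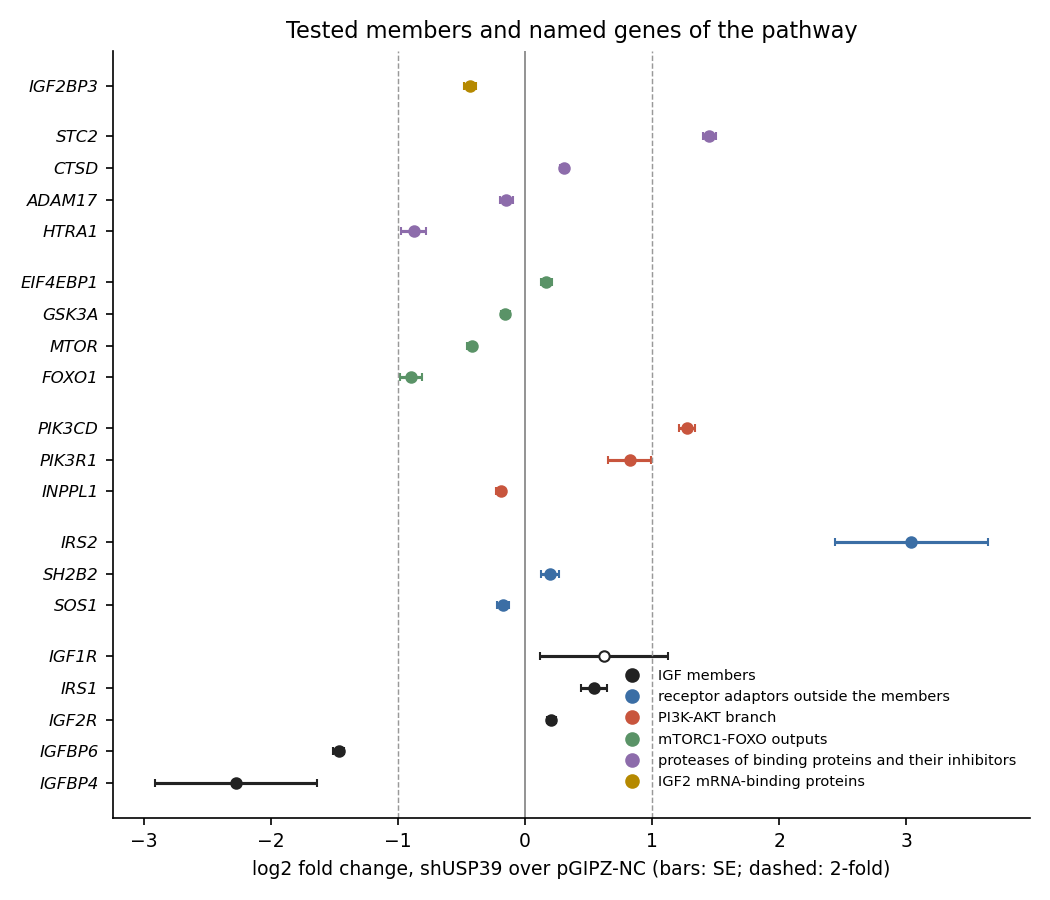
Log2 fold change of shUSP39 over pGIPZ-NC with its SE for the 5 tested IGF genes and 15 genes of the pathway lists. These 15 were chosen by call or smallest adjusted p. Genes are grouped by colour, with dashed lines at 2-fold and an open symbol where the adjusted p did not pass. IRS2 (3.04), STC2 (1.45) and PIK3CD (1.28) lie beyond 2-fold on the higher side, and IGFBP4 (-2.28) and IGFBP6 (-1.47) on the lower side.

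Because USP39 is a splicing factor, the use of transcripts within a gene was also compared where the table allowed it. The 10 genes filled 13 rows, 3 for IGF2, 2 for IGFBP7 and 1 for each other gene. None of the 10 had 2 transcripts with enough counts, so edgeR's diffSpliceDGE could test 0 of them, while 33 of the 1628 genes tested passed (2.03%). Changes in the splicing of the IGF genes were therefore not measured by these counts. In a bulk sample, fewer cells that express a gene and less RNA per cell cannot be told apart.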

How the data were processed

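The 6 libraries were total RNA of A2780 cells (3 pGIPZ-NC, 3 shUSP39), grouped by the labels. The authors deposited raw read counts per RefSeq transcript. The submitters' processing notes name HISAT2, Cufflinks and hg19 without versions or roles, and the counter and its use of strand are not given in the sources used here. The authors' own mean signals, folds, p-values and q-values per transcript were not used.

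The 21368 rows were summed to 16571 symbols, after 46 rows whose symbol had turned into a date were restored. CPM is a gene's count divided by the total of its library and multiplied by 1000000. Counts were tested with edgeR 4.0.16 in R 4.3.3 (filterByExpr, TMM, robust quasi-likelihood fit, adjusted p under 0.05 and over 2-fold). Sets of counts too low for the test were given with exact 95% counting intervals. Where 1 group had 0 counts, the mean of the other was set against a floor of 3 counts, without its own error. The script was tested on simulated data. Positions and lengths came from GENCODE 44 on GRCh37, matched by symbol for 15820 symbols, and promoters from RefSeq (GRCh38.p14). The members and lists were chosen with earlier results of these data known. Named beside the members were list genes that were called, and up to 4 per list with the smallest adjusted p under 0.05. Outside this rule, IGF1, INSR, INSRR, IGFBP1, IGFALS, IRS4, AKT1, AKT2, PIK3CA, PAPPA and IGF2BP1 were also named. None of these was called in the main fit. Alternatives were DESeq2 1.42.0, limma-voom 3.58.1, other scalings, filters and fold limits, a replicate block, transcripts in place of genes and leaving out libraries. Deviations from the group means correlated at 0.0688, 0.00477 and 0.0216 between libraries of the same replicate number. Between other pairs the correlations ran from -0.0517 to 0.0302. All values were small, and whether the numbers pair the libraries was not settled by them. The level of USP39 was not analysed here.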

Additional observations from a re-analysis of the deposited data

How the results depend on the processing

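The log2 fold changes of IGFBP6 (-1.49 to -1.43), IGF2R (0.17 to 0.25) and IRS1 (0.40 to 0.61) kept their direction and their side of the adjusted p in all 16 alternatives, and IGF1R (0.43 to 0.93) passed in none. Of these, leaving out shUSP39 replicates 2 and 3 together was chosen after seeing the data and takes the spread from the controls alone. IGFBP4 ranged from -2.63 to -1.77 when each library was left out in turn, and its call was lost without pGIPZ-NC replicate 2 (-1.81, edgeR adjusted p = 0.110). The number of IGF genes called, 2 in the main fit, was 1 with at least 10 counts required in every library, where IGFBP4 was not tested, and 1 to 3 when each library was left out, with 1 without pGIPZ-NC replicate 2 and 3 (IGFBP5 added) without pGIPZ-NC replicate 3. IGFBP5 passed the filter there through its pGIPZ-NC counts alone, as IGFBP4 did in the main fit. With no filter the number of IGF genes called was 3, IGFBP3 added. Of the pathway lists, 3 genes were called, and 6 with a limit of 1.5-fold (PIK3R1, FOXO1 and HTRA1 added). INSRR had 0, 4 and 0 counts in pGIPZ-NC and 2, 19 and 12 in shUSP39, and was not tested in the main fit. With some libraries left out it passed the filter through shUSP39 replicates 2 and 3 alone, so it had to be higher to be tested. Without pGIPZ-NC replicate 2, or without shUSP39 replicate 1, INSRR was called (edgeR adjusted p = 0.020 and 0.00924). Without pGIPZ-NC replicate 1 or 3 it was not (adjusted p = 0.148 and 0.153). No result reversed. With the replicate number as a block, 2 IGF genes were called (log2 fold change of IGFBP4 -2.32, of IGFBP6 -1.47), and 18 pathway genes passed the adjusted p against 16. The replicate block changed none of the calls above. By the correlation of deviations, pGIPZ-NC replicates 1 and 3 were closest to the shUSP39 library of the same number, and pGIPZ-NC replicate 2 to shUSP39 replicate 3. Without the filter the median of all genes moved to 0.12, and with upper-quartile scaling 2077 genes passed as higher and 1501 as lower, against 1726 and 1872. Depth limits IGF2, IGFBP2, IGFBP3, IGFBP5 and IGFBP7, which had at most 17 counts in any library.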
